A study of Mus musculus with 13 samples.

Results

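Short nascent strands, which mark sites of replication initiation, were mapped by sequencing (SNS-seq) in CGR8 mouse ES cells, and the origins described here are those called in both treated replicates and in all control replicates but 1. The members were chosen on measured values, by the presence of peaks: overlapping peaks of the 5 deposited lists (1 bp or more, nuclear chromosomes) were merged, and a member had a peak in exactly 2 of the 3 Ctrl lists and in both PhenDC3 lists. This gave 10728 members out of 246934 merged regions (4.34%), and 10.6% of the 101678 origins that had a peak in at least 2 Ctrl lists or in both PhenDC3 lists. Ctrl cells (3 SNS-seq and 3 RNA-seq libraries) were grown for 48 h in 0.5% DMSO, and PhenDC3 cells (2 SNS-seq and 3 RNA-seq libraries) for 48 h with 10 μM PhenDC3 in the same solvent. PhenDC3 is a small molecule that binds and stabilizes G-quadruplexes (G4). All libraries came from the same ES cell line, kept with LIF and serum, and the study's methods call the control SNS-seq libraries biological replicates. For the RNA-seq libraries neither labels nor methods say whether replicates were separate cultures, so the p-values of that test measure the spread between these libraries, which may be technical.

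As background, replication starts at many sites of a mammalian chromosome, only part of which are used in a given cell cycle, so that each origin is active in a fraction of the cells of a culture. Origins are known to lie near G-rich sequence elements able to fold into a G4, in which stacked planes of guanines are held by hydrogen bonds, and many lie at CpG islands and gene promoters. A peak caller turns a continuous signal into presence or absence, so a site of low signal can pass in one replicate and fail in another.

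The control that lacked the peak was not the same for all members. Ctrl 3 lacked the peak at 4484 members (41.8%, 95% Wilson interval 40.9 to 42.7), Ctrl 2 at 3905 (36.4%, 35.5 to 37.3) and Ctrl 1 at 2339 (21.8%, 21.0 to 22.6). These numbers followed the lengths of the lists, which held 79377 nuclear peaks in Ctrl 3, 81211 in Ctrl 2 and 120882 in Ctrl 1, against 144103 in PhenDC3 1 and 102400 in PhenDC3 2. Among regions with a peak in the other 4 lists, a peak was missing from Ctrl 1 at 9.35%, from Ctrl 2 at 14.7% and from Ctrl 3 at 16.5%. In the same way it was missing from PhenDC3 2 at 10.5% and from PhenDC3 1, the longest list, at 22.1%. The loss of 1 list out of 5 was therefore seen for every replicate of both conditions. The lists give no read counts, so the depth is unknown, and the intervals on shares cover counting error only. Regions of a genome share their libraries and are not replicates, so shares are compared by the 95% Newcombe interval of their difference and by the sign of the difference on each chromosome, with no p-value.

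The strongest members of each kind are shown first, with the G4 that the G4Hunter score finds near them, because the rule asks for near-complete agreement between lists and these sites reach the upper end of 4 lists while the remaining list has no peak. They were taken from the 2 members per missing control with the highest mean percentile of −log10 p over their 4 lists and a G4 within 500 bp of the centre. Each sequence is written 5′ to 3′ on its G-rich strand from mm10 (GRCm38), with 15 bases on either side of the predicted G4 and its runs of 3 or more G in capitals. G4Hunter scores G-richness and G-skew in a window of 25 bases and does not require 4 runs.
Without Ctrl 1, intergenic, chr10:7492471-7492523 (minus strand): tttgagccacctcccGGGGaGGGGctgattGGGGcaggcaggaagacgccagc
Without Ctrl 1, intron of Dnah2, chr11:69494796-69494857 (minus strand): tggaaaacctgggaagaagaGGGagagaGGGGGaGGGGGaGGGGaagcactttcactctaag
Without Ctrl 2, intergenic, chr5:38661454-38661533 (minus strand): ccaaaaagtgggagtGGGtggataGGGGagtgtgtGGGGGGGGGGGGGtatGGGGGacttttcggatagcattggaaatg
Without Ctrl 3, promoter of 1700022H01Rik and intron of Sar1a, chr10:61680540-61680593 (plus strand): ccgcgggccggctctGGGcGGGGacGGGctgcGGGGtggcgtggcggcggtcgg
Without Ctrl 3, promoter of Clip2, chr5:134553295-134553357 (plus strand): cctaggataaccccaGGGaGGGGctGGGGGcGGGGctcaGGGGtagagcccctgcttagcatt
Both members without Ctrl 3 lay at promoters, with their centres 431 and 384 bp from the nearest transcription start site (TSS). The other 3 members shown lay in introns or between genes, between 19488 and 54217 bp from a TSS. The median peak summit, read along the G-rich strand, lay at −664.5 bp (upstream) from the G4 shown at chr10:7492471-7492523. It lay at −341 bp at the Dnah2 element and at −730 bp at Clip2. These members held 2, 2 and 3 predicted G4 within 500 bp, of which the highest-scoring is shown. At the chr5:38661454-38661533 and 1700022H01Rik sites it lay 317 and 107.5 bp downstream.

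At the member next to the Dnah2 element (chromosome 11, 69494510 to 69495272), Dnah2 being an axonemal dynein heavy chain gene, the fold enrichment was 8.45 in Ctrl 2, 13.7 in Ctrl 3, 9.35 in PhenDC3 1 and 13.03 in PhenDC3 2. The values of both PhenDC3 lists lay between those of the 2 controls with a peak. At the promoter member of Clip2 (chromosome 5, 134552320 to 134553316), which codes for a microtubule-binding protein, the fold enrichment was 7.69 in Ctrl 1, 8.74 in Ctrl 2, 6.90 in PhenDC3 1 and 8.80 in PhenDC3 2. The values of both conditions overlapped at this site.

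Hip1, which codes for an endocytic adaptor protein and is one of the loci displayed by the study, held 3 members, all without a peak in Ctrl 3 and all in introns. The member farthest from the TSS (chromosome 5, 135413993 to 135414486) had a fold enrichment of 3.66 in Ctrl 1, 4.20 in Ctrl 2, 8.32 in PhenDC3 1 and 5.23 in PhenDC3 2. Both controls with a peak were below both PhenDC3 lists, and their peaks ranked at percentiles 1.57 and 11.0 of −log10 p of their lists, against percentiles 95.9 and 61.4 in PhenDC3 1 and 2. The other 2 members (135486114 to 135486336, and 135492212 to 135492677) had their highest fold enrichment in a control, at 8.94 in Ctrl 2 and 11.2 in Ctrl 1. The 3 members of 1 gene thus ranked the conditions differently. The G4 at the first of them is shown because its 3 G tracts are the only G4 predicted within 500 bp of that centre.
Hip1, intron, chr5:135413907-135413965 (plus strand): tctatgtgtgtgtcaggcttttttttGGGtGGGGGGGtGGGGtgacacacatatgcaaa

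The strength of the peaks uses the same measure as the rule and is given as a description. In the control lists, the members held weaker peaks than the 22677 regions with a peak in all 5 lists. The median percentile of −log10 p within the list was 56.7 at members against 80.1 at the regions in all 5 lists in Ctrl 1, 45.03 against 71.2 in Ctrl 2, and 49.4 against 74.8 in Ctrl 3. The gap was smaller in the treated lists, at 66.1 against 69.3 in PhenDC3 1 and 59.0 against 75.01 in PhenDC3 2. As fold enrichment, the members had medians of 5.42, 4.55 and 5.57 in Ctrl 1 to 3, against 7.03, 5.86 and 6.88 at the regions in all 5 lists. In PhenDC3 1 the median fold enrichment was 5.49 at members and 5.24 at the regions in all 5 lists, and in PhenDC3 2 it was 5.11 and 5.28. The 10116 regions with a peak in 1 Ctrl and both PhenDC3 lists lay lower still in the controls, with median percentiles of 39.2, 29.3 and 37.4, and had 64.4 in PhenDC3 1 and 52.1 in PhenDC3 2, below the members in both. Merged members were also narrower, with a median width of 363 bp against 487 bp at the regions in all 5 lists. This width joins the peaks of 4 lists at members and of 5 at the other regions, so the sets are not measured alike.

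**Figure D1:**
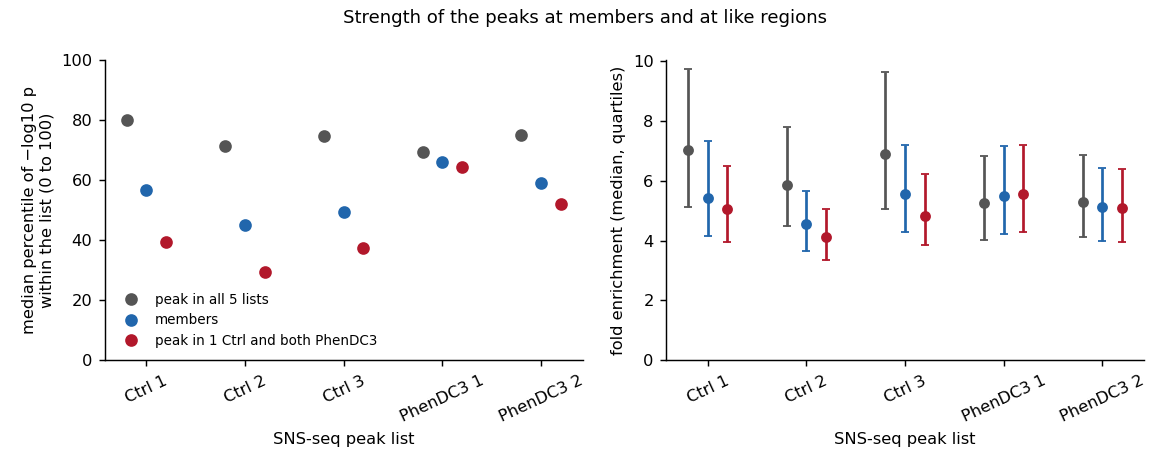
Median percentile of −log10 p within each SNS-seq list (left, 0 to 100) and fold enrichment over the RNase-treated library (right, median with quartiles as bars) for members, regions with a peak in all 5 lists, and regions with a peak in 1 Ctrl and both PhenDC3 lists. In Ctrl 1 to 3 the members lie between the other sets (56.7, 45.03 and 49.4), and they do so in both PhenDC3 lists too, where the 3 sets lie between 64.4 and 69.3 in PhenDC3 1 and between 52.1 and 75.01 in PhenDC3 2.

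Members differed in strength with the control that was missing. Those without Ctrl 1 had a median percentile of 58.3 in PhenDC3 1 and 71.5 in PhenDC3 2, whereas those without Ctrl 2 had 66.8 and 56.5, and those without Ctrl 3 had 70.4 and 53.6. Peak names show lane labels in Ctrl 1 and PhenDC3 1 and an adapter-filter tag in Ctrl 2 and PhenDC3 2. The members without Ctrl 1 were weaker in PhenDC3 1, which carries the same kind of name. Those without Ctrl 2 were weaker in PhenDC3 2, but so were those without Ctrl 3 and all members together (66.1 in PhenDC3 1 and 59.0 in PhenDC3 2). The part of this processing difference in the result was not tested. Near the edges of the rule, 6 members lay within 10 bp of a peak of the missing control and 544 (5.07%) within 200 bp, while 42.0% had one within 5 kb. The weakest control peak had a median −log10 p of 12.9 at members and 17.2 at the regions in all 5 lists, where the lowest value in any list was about 5. A weakest control peak under 6 was found at 270 members (2.52%) and at 319 regions in all 5 lists (1.41%). The weakest is the lowest of 2 control peaks at members but of 3 at the regions in all 5 lists, so the sets are not measured alike.

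Sequence was not used by the rule. A G4 (G4Hunter threshold 2) lay within 500 bp of the centre at 8734 members (81.4%, 80.7 to 82.1), against 70.7% of all 101678 origins, members included, and 18.8% of genome tiles of the same size. The members held a G4 more often than the regions in all 5 lists (77.3%; difference 4.09 percentage points, 3.17 to 5.00; same sign on 16 of 19 chromosomes with at least 100 regions of each kind). Within 250 bp the shares were 46.7% and 38.9% (difference 7.80 points, 6.67 to 8.94; same sign on 19 of 19 chromosomes). This cutoff lies beside the highest G4 density, at 264 bp from the centre at members and 283 bp at the regions in all 5 lists. The share within 250 bp therefore depends on small shifts of the centre, whose part was not tested. The members exceeded the 9102 regions with a peak in all 3 Ctrl and 1 PhenDC3 list by more (72.2%; difference 9.21 points, 8.03 to 10.39; 19 of 19 chromosomes). Against the regions with 1 Ctrl and both PhenDC3 lists, the difference was 0.13 points (−0.93 to 1.18), so that no difference beyond about 1 point was detectable there. The excess over the regions in every list was lost when a PhenDC3 list was left out. Without PhenDC3 1, members defined over the remaining lists held a G4 at 76.6% against 76.8%, and without PhenDC3 2 at 74.5% against 76.0%.

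Over all merged regions, the share with a G4 was set side by side for each number of lists. With a peak in both PhenDC3 lists it was 80.5%, 81.3%, 81.4% and 77.3% for 0, 1, 2 and 3 Ctrl lists. With a peak in 1 PhenDC3 list it was 70.1%, 64.5%, 65.0% and 72.2%. With no PhenDC3 peak it was 34.7%, 41.8% and 52.8% for 1, 2 and 3 Ctrl lists. The share moved less with the number of controls than with the number of PhenDC3 lists, and the members, with both PhenDC3 lists, had the highest value of the 11 combinations, by 0.13 points over the next.

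**Figure D2:**
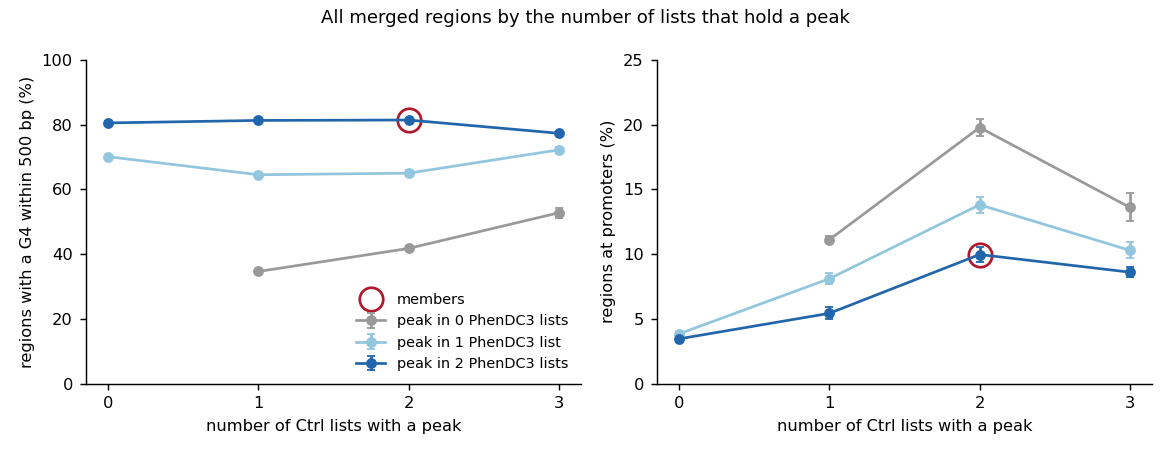
Share of merged regions with a G4 within 500 bp (left) and at promoters (right), in percent, by the number of Ctrl lists (horizontal axis) and of PhenDC3 lists (colours) with a peak; bars are 95% Wilson intervals and the ring marks the members. With both PhenDC3 lists the G4 share stays between 77.3% and 81.4%, while the promoter share runs from 3.47% without a Ctrl peak to 9.97% at the members.

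Grouped by the missing control, members differed more in the distance of the G4 from the centre than in its presence. The centre is that of the merged peaks of the lists that remain, so this distance depends on which list is missing. At the regions in all 5 lists, the median summit lay 227 bp from the strongest G4 in Ctrl 2, against 245.5 and 249.75 bp in Ctrl 1 and 3. The part of this offset in the differences below was not tested. A G4 within 500 bp was found at 84.6% (83.05 to 86.0) of members without Ctrl 1, 80.3% (79.0 to 81.5) without Ctrl 2 and 80.8% (79.6 to 81.9) without Ctrl 3. Within 250 bp, it was found at 53.5% of members without Ctrl 1 and 51.5% without Ctrl 3, but at 37.3% without Ctrl 2 (14.2 points fewer than without Ctrl 3, 12.1 to 16.3; same sign on 19 of 19 chromosomes). Along the G-rich strand, the G4 lay upstream of the centre. Its density was highest 264 bp upstream over all members, where 14.98% of them had a G4 base, and the mean between 100 and 400 bp was 10.3% upstream against 1.21% downstream. Members without Ctrl 1 had the sharpest profile, with 19.5% at 260 bp upstream, against 14.9% at 301 bp without Ctrl 2 and 13.7% at 267 bp without Ctrl 3.

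**Figure D3:**
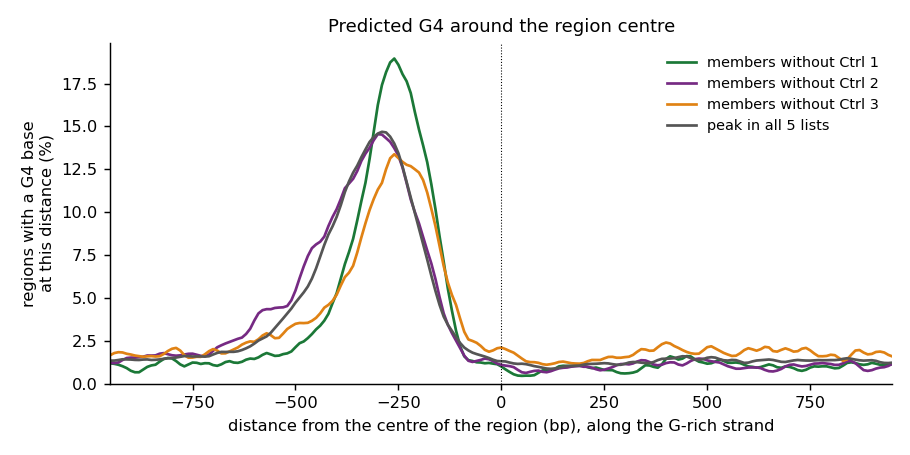
Share of regions with a predicted G4 base (percent, smoothed over 25 bp) by distance from the centre of the region in bp, read along the G-rich strand, for members without Ctrl 1, 2 or 3 and for regions with a peak in all 5 lists. All 4 curves rise upstream of the centre, and the curve of members without Ctrl 1 is the highest.

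Peak summits lay downstream of the strongest G4 in each of the 5 lists, at between 86.6% and 89.9% of the members with a G4 and a peak in that list. The median distance was 239 bp in Ctrl 1, 203.5 bp in Ctrl 2, 263.5 bp in Ctrl 3, 226 bp in PhenDC3 1 and 232 bp in PhenDC3 2. The values of PhenDC3 lay inside the range of the controls (mean difference −6.33 bp, exact permutation test over lists, two-sided p = 0.8, where 3 against 2 lists allow no p below 0.2). The control medians cover 6756, 5600 and 5112 members and both PhenDC3 medians 8734, so the lists are compared on unlike regions. At the regions in all 5 lists, which are the same for each list, the medians were 245.5, 227 and 249.75 bp in Ctrl 1 to 3. There they were 231.5 and 235 bp in PhenDC3 1 and 2 (mean difference −7.5 bp, exact permutation p = 0.6). The median width of the peaks at members was likewise close as a mean over lists, at 213 bp for PhenDC3 and 214 bp for Ctrl (difference −1 bp, exact permutation p = 1.0). By list it was 251, 220 and 171 bp in Ctrl 1 to 3, and 234 and 192 bp in PhenDC3 1 and 2. The regions in all 5 lists did not show this closeness, with 251.5 bp for PhenDC3 and 325.7 bp for Ctrl (difference −74.2 bp, exact permutation p = 0.2). Within genes, the G-rich strand was the coding strand at 46.9% (45.4 to 48.4) of members, and the regions in all 5 lists gave the same share, 46.9%.

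Position in the annotation separated the members by the missing control. Of all members, 9.97% lay at promoters (up to 2 kb upstream of a curated RefSeq TSS), 5.93% in other exons, 40.3% in introns and 43.8% between genes. Promoters held 18.4% (17.3 to 19.6) of members without Ctrl 3, but 4.57% (3.80 to 5.50) of those without Ctrl 1 and 3.48% (2.95 to 4.11) of those without Ctrl 2. The difference between members without Ctrl 2 and without Ctrl 3 was −14.96 points (−16.24 to −13.69), with the same sign on 19 of 19 chromosomes. CpG-rich sequence (GC of at least 50% and a CpG ratio, observed over expected, of at least 0.6 within 500 bp of the centre) was found at 21.4% of members without Ctrl 3, against 2.14% without Ctrl 1 and 1.31% without Ctrl 2. Outside these promoters, 14.0% of members without Ctrl 3 were CpG-rich, against 1.39% and 0.769% without Ctrl 1 and Ctrl 2. Sequence just downstream of a TSS counts as outside here. For members without Ctrl 3, the CpG-rich share was 38.01% in exons outside promoters and 18.52% in introns. Between genes it was 3.496%, against 0.526% without Ctrl 1 and 0.0979% without Ctrl 2. How much of the 14.0% lay near a TSS was not tested. Repeat-masked sequence showed the opposite order, covering at least 50% of the window at 23.6% of members without Ctrl 2, 15.6% without Ctrl 1 and 9.32% without Ctrl 3.

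**Figure D4:**
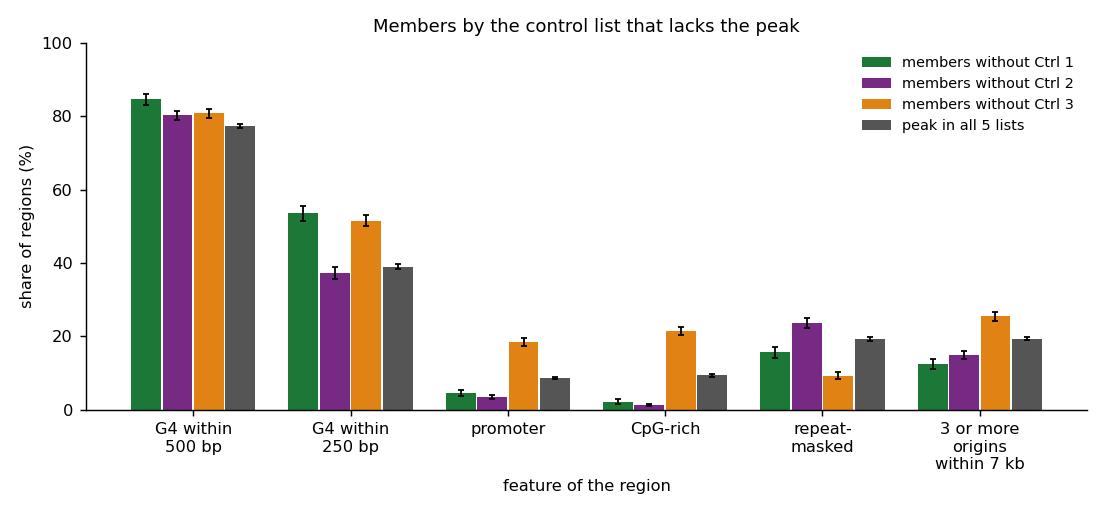
Share of regions (percent, bars with 95% Wilson intervals) that hold a feature, for members without Ctrl 1, 2 or 3 and for regions with a peak in all 5 lists. Members without Ctrl 3 stand above the other members at promoters (18.4%) and in CpG-rich sequence (21.4%), and members without Ctrl 2 are the most often repeat-masked (23.6%).

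The lists themselves differed in the same features. Of all peaks of a list, by their summits, 12.1% in Ctrl 1, 14.9% in Ctrl 2 and 6.85% in Ctrl 3 lay at promoters, against 6.95% in PhenDC3 1 and 6.38% in PhenDC3 2. CpG-rich sequence held 12.6% and 16.7% of the peaks in Ctrl 1 and 2, 5.99% in Ctrl 3, and 6.73% and 5.38% in PhenDC3 1 and 2. Ctrl 3 was therefore nearer to both PhenDC3 lists than to the other controls in these shares. The part of this composition of the lists in the members was not tested. The regions missing only PhenDC3 2 were CpG-rich at 17.1% and those missing only PhenDC3 1 at 9.04%, so a high CpG share was also found where 1 PhenDC3 list was the one missing. As a whole, the members exceeded the regions in all 5 lists at promoters by 1.36 points (8.61%; 0.70 to 2.04; 15 of 19 chromosomes), but the order turned without Ctrl 3, when members held promoters at 5.32% and regions in every list at 10.2%. The interval of this excess included 0 without PhenDC3 1 (0.48 points, −0.08 to 1.04), with the stronger part of each list (above its median −log10 p; 0.31 points) and with equal numbers of peaks per list (0.75 points).

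Members without Ctrl 3 also had the most neighbours and the nearest genes. At least 3 other origins lay within 7 kb of 25.4% of members without Ctrl 3, against 14.9% without Ctrl 2 and 12.5% without Ctrl 1. The median distance to the nearest TSS was 7.95 kb without Ctrl 3, 25.7 kb without Ctrl 1 and 30.1 kb without Ctrl 2. Members were spread over the autosomes at between 2.61 per Mb (chromosome 14) and 6.75 per Mb (chromosome 11), and were rarer on chromosomes X (0.593 per Mb) and Y (0.0908 per Mb). Members made up between 9.57% and 11.3% of the origins of an autosome and 6.20% of those of chromosome X. Ctrl 3 was the list without the peak at between 36.2% and 47.8% of the members of an autosome.

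Gene expression was measured independently of the rule by RNA-seq in the same treatment, with between 22232014 and 29486502 counts per library. The ES cell label was checked on Pou5f1, Sox2 and Nanog, core pluripotency factors, which had at least 1045, 602 and 466 CPM (counts scaled to a common library total) in every library. Nanog rose from 491, 474 and 466 CPM to 1183, 1045 and 1109 CPM (log2 fold change 1.22 ± 0.10 SE, edgeR adjusted p = 0.000101), Pou5f1 fell (log2 fold change −0.45 ± 0.11, adjusted p = 0.0113), and Sox2 did not pass (0.22 ± 0.10, adjusted p = 0.122). In bulk RNA, fewer cells of a type and less RNA per cell cannot be told apart. A member lay within 2 kb of a curated TSS of 2359 genes (9.01% of annotated genes), of which 1754 passed the filter on low counts. Of these, 351 rose with PhenDC3 (20.01%) and 312 fell (17.8%) by edgeR's quasi-likelihood test at an adjusted p of at most 0.05, against a background of 18% and 18.7% among all 13972 genes tested. Both shares were near the background, and the median log2 fold change was 0.05 for genes with a member and 0.01 for all genes tested. With PhenDC3 1 left out of the RNA-seq libraries, 242 of the genes with a member rose (13.6%) and 190 fell (10.7%), against 12.0% and 11.4% of all genes. Genes with a region in all 5 lists gave 19.8% and 19.4%. Of the genes with a member without Ctrl 3, 20.2% rose and 16.9% fell, and of those with a member without Ctrl 2, 19.3% rose and 25.6% fell. Whether these shares differ was not tested. In control cells, genes with a member had a median level of 5.81 CPM per kb of exon (quartiles 1.32 to 18.5), against 6.25 (1.30 to 21.0) for all genes tested.

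The 8 largest rises and falls among genes with a member at a TSS are named by a fixed rule. These genes were chosen for large changes that passed the test, so the separation of their Ctrl and PhenDC3 libraries is no further result. The pair Dmgdh and Bhmt2 shares 1 member (chromosome 13, 93673912 to 93674253) at its divergent promoters, without a peak in Ctrl 3, and both genes rose. Dmgdh had 0.471, 0.274 and 0.908 CPM in Ctrl 1 to 3 and 5.45, 4.64 and 3.05 CPM in PhenDC3 1 to 3 (log2 fold change 2.98 ± 0.40 SE, adjusted p = 0.000772). All treated libraries were above all controls, at low levels. Bhmt2 had 0.398, 0.502 and 0.259 CPM in Ctrl and 2.50, 3.26 and 1.78 CPM in PhenDC3 (log2 fold change 2.68 ± 0.36). The fold enrichment of the shared member was 4.15 in Ctrl 1, 4.94 in Ctrl 2, 6.10 in PhenDC3 1 and 6.15 in PhenDC3 2, higher in both treated lists. Its G4 is shown as a site where a member and a pair of genes that rose meet.
Dmgdh and Bhmt2, between the start sites, chr13:93674341-93674411 (minus strand): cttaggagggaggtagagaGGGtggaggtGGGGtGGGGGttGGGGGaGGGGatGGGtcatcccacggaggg

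Fst, which codes for the activin antagonist follistatin, rose from 2.53, 2.92 and 2.03 CPM to 10.1, 15.9 and 16.4 CPM (log2 fold change 2.50 ± 0.24, adjusted p = 0.000159). Sirpa, which codes for a receptor of CD47, rose from 4.42, 4.47 and 3.93 CPM to 22.2, 27.5 and 19.5 CPM (log2 fold change 2.43 ± 0.17, adjusted p = 6.77e-05). The nearest member of each gene lacked Ctrl 3. Ggt7, She, and the predicted genes Gm4858 and Gm8994 rose by log2 fold changes between 2.30 and 3.11, and reads of the predicted genes may be shared with similar copies. Among the falls, Crmp1, which codes for a protein of axon guidance, had 41.2, 47.2 and 53.1 CPM in Ctrl and 5.86, 3.81 and 8.46 CPM in PhenDC3 (log2 fold change −2.96 ± 0.26, adjusted p = 0.000108). It had the highest mean CPM of the 16 genes named by this rule. Pdyn (a precursor of opioid peptides), Zbp1 (a sensor of nucleic acids), Tal1 (a factor of blood formation), Nnat, Cntfr and Jph4 fell by log2 fold changes between −3.89 and −2.49. Rmrp, the RNA of RNase MRP, passed the test at an adjusted p of 0.023 with 33.1, 34.6 and 10.8 CPM in Ctrl and 3.12, 0.878 and 9.29 CPM in PhenDC3, and did not pass without the filter on low counts (adjusted p = 0.128). The libraries were made with a kit for mRNA, which Rmrp is not, so its counts may not follow its level. Of the 16 genes, Cntfr alone had no G4 within 500 bp of the centre of its nearest member.

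Among lineage transcription factors, a list chosen with earlier results of these data known, a member lay within 2 kb of a TSS of 10 of 24 genes (41.7%, against 9.01% of annotated genes), and the nearest member lacked Ctrl 3 at 9 of these 10 genes. Of all genes with a member, 1808 of 2359 (76.6%) had one without Ctrl 3. A region in all 5 lists lay at 4 of the 24 genes. Of the 8 with enough counts, 5 rose (Gata4, Gata6, Foxa2, Gsc and Lhx2) and none fell, beside 18% and 18.7% of all genes tested, while of all 15 tested genes of the list 6 rose and 1 fell. Gata4, a factor of primitive endoderm and heart, rose from 13.7, 11.9 and 7.78 CPM to 27.5, 20.3 and 19.5 CPM (log2 fold change 1.01 ± 0.22, edgeR adjusted p = 0.00788). Foxa2, a factor of endoderm, rose from 1.27, 1.09 and 1.82 CPM to 3.43, 3.64 and 4.28 CPM (log2 fold change 1.44 ± 0.25). Gsc, a factor of the organizer, had 0.0362, 0.0912 and 0.303 CPM in Ctrl and 1.46, 1.30 and 0.617 CPM in PhenDC3 (log2 fold change 2.97 ± 0.63). Lhx2, a factor of forebrain and eye, also rose (log2 fold change 2.16 ± 0.47), and Gata6 passed at an adjusted p of 0.0435, which became 0.122, 0.0946 and 0.0513 with PhenDC3 1, 2 or 3 left out. These 5 genes are named because they passed the test, so the separation of their Ctrl and PhenDC3 libraries is no further result. Gsc and Lhx2 stayed under 2 CPM in every library. Cdx2 and Twist1 did not pass (log2 fold changes of −0.07 and 0.15). The member of Gsc (chromosome 12, 104473128 to 104473489) lay at the promoter, with a G4 beside it.
Gsc, chr12:104473469-104473556 (plus strand): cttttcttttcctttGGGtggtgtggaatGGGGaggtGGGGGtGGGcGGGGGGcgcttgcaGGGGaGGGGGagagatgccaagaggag

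The other lists held fewer members. They were also chosen with earlier results of these data known. Beside their counts, 9.01% of annotated genes had a member, and 18% of all genes tested rose and 18.7% fell. Among 16 pluripotency genes, Klf4, Klf5 and Sall4 had a member at a TSS, and Klf4 rose from 154, 177 and 167 CPM to 299, 309 and 273 CPM (log2 fold change 0.82 ± 0.11, edgeR adjusted p = 0.000762), while Klf5 and Sall4 had log2 fold changes of −0.43 and 0.08. Over that list, 7 genes rose and 3 fell. Among 28 genes of origin licensing and firing, Mcm6, a subunit of the replicative helicase, was the one with a member, at its promoter (chromosome 1, 128359586 to 128359899, without Ctrl 3), and it fell from 423, 407 and 474 CPM to 359, 321 and 327 CPM (log2 fold change −0.37 ± 0.11, adjusted p = 0.0286), a call that was lost with Ctrl 1, Ctrl 3 or any PhenDC3 library left out (adjusted p between 0.0513 and 0.0933). In that list 1 gene rose and 8 fell. Among 9 G4 helicases, Wrn, Dhx36 and Dhx9 had a member and none passed the test, with adjusted p of 0.134, 0.364 and 0.0554. Bbc3, of 12 p53 targets (8 rose and none fell), and Tcf7, of 12 Wnt genes (2 rose and 3 fell of 10 tested), did not pass either (log2 fold changes of −0.02 and −0.21). Hip1, with its 3 intronic members more than 2 kb from the TSS, rose (log2 fold change 1.19 ± 0.15, edgeR adjusted p = 0.000477).

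**Figure D5:**
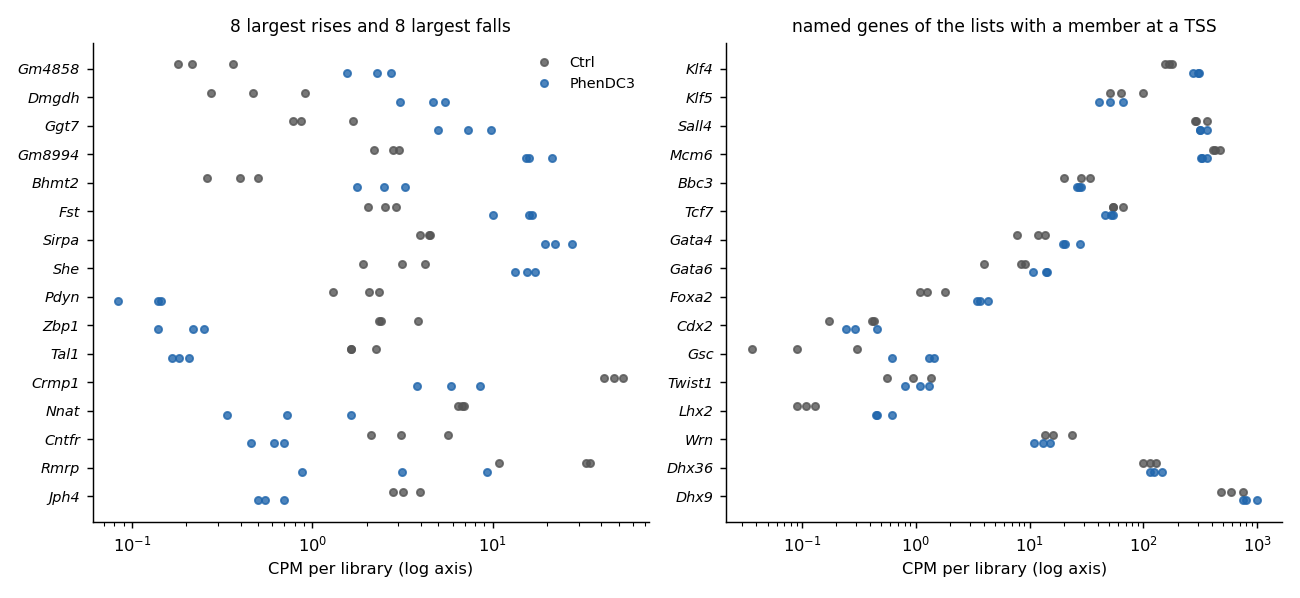
CPM in each RNA-seq library (log axis) of Ctrl and PhenDC3 for the genes with the 8 largest rises and falls among genes with a member at a TSS (left) and for the tested genes of the gene lists with such a member that are named in the text (right). The 16 genes on the left were chosen for large changes that passed the test, so the separation of their groups is no further result. Rmrp is the most spread of them (10.8 CPM in Ctrl 3 against 9.29 CPM in PhenDC3 3).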

How the data were processed

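Members and gene lists were chosen with earlier results of these data known. For SNS-seq, the authors mapped reads to mm10 with Bowtie2, called narrow peaks with MACS2 2.1.0 in each replicate against 1 RNase-treated library per condition, and kept peaks overlapping a SICER region. The deposited lists give each peak's fold enrichment, its −log10 p and its summit, and no read counts. RNA-seq reads were mapped by the authors with TopHat2, and their deposited table holds raw HTSeq counts per gene; the strand setting is not given in the sources used here. A deposited table of normalized values and the authors' own table of fold changes and p-values were not used.

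Here, peaks were merged in Python 3.11.15 with NumPy 2.4.6. G4 were predicted on both strands of GRCm38 with G4Hunter (window 25, threshold 2, or 1.5) and Quadparser, and counted for a region where one lay at most 500 bp from the centre. Sequences, repeats (soft-masked bases) and curated transcripts came from RefSeq's GRCm38.p6. Genes were matched by Entrez number. Counts were tested with edgeR 4.0.16 (quasi-likelihood, RLE, filterByExpr, robust) over all genes with Benjamini-Hochberg adjustment, and SEs were taken as the log2 fold change over the root of the F statistic. The script was tested on simulated data. DESeq2 1.42.0, TMM, no filter, a replicate block, other merging rules, G4 settings and leaving out each library were alternatives. Named genes were the 8 largest rises and falls with an adjusted p of at most 0.05 and a mean CPM of at least 1, and list genes with a member at a TSS. Named loci were the 2 strongest G4-positive members per missing control (chromosomes 8 and 18 left out) and members at the loci the study displays (Xpa, Mafg, Hip1, Mir466n), of which Hip1 alone held any; 1 gene and 1 locus that these rules select are not reported here.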

Additional observations from a re-analysis of the deposited data

How the results depend on the processing

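When peaks had to share 50% of the shorter one, or with peaks up to 200 bp apart merged, the number of members and the differences in G4 and promoter shares kept their call and, with 1 exception, their direction: the promoter difference from regions in all Ctrl and 1 PhenDC3 list (−0.32 points) became 0.32 points with the latter, both with intervals that include 0. Taking the stronger part of each list (above the median −log10 p) left 4468 members and equal numbers of peaks left 6482, and the promoter excess over regions in every list was then 0.31 and 0.75 points, with intervals that include 0. With each SNS-seq list left out, members numbered between 12496 and 17528. The G4 difference from regions in every list then ranged from −1.52 to 3.75 points, reversing at −0.17 without PhenDC3 1 and −1.52 without PhenDC3 2. The promoter difference from regions in every list ranged from −4.91 (without Ctrl 3) to 4.03 points (0.48 without PhenDC3 1, with an interval that includes 0). The promoter difference from regions in all Ctrl and 1 PhenDC3 list ranged from −10.26 (without Ctrl 3) to 0.02 points (0.0205 without Ctrl 2). The 14.96 points by which members without Ctrl 3 exceeded those without Ctrl 2 at promoters ranged from 12.0 to 18.3. The summit distance reversed to 7.75 bp without Ctrl 3, and ranged from −22.25 to 7.75 bp.

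Among genes with a member at a TSS, between 242 and 386 rose (13.6% to 21.7%, against 12.0% to 18.9% of all genes) and between 190 and 313 fell (10.7% to 17.6%, against 11.4% to 19.1%) with each RNA-seq library left out. Where no other origin lay within 2 kb, 101 rose (20.9%) and 87 fell (17.98%), beside 18% and 18.7% of all genes. A replicate block called 526 (29.99%) and 429 (24.5%), against 27.2% and 26.4% of all genes. The numbers are no established pairing: deviations of same-numbered libraries correlated at 0.09, 0.54 and 0.41, and each library correlated best with its own number. The call of Rmrp was lost under the replicate block (adjusted p = 0.252) and with Ctrl 1, Ctrl 2, PhenDC3 1 or PhenDC3 2 left out. TMM, DESeq2 and no filter kept both counts within 1.5 times. The depth of SNS-seq is unknown, so an absent peak was not separated from a signal just under the caller's threshold.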

Other observations

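The G4 share of members varied with position and base composition, as a description without a test. Between genes, 83.5% (95% Wilson interval 82.4 to 84.5) of members held a G4 within 500 bp, against 73.3% (72.5 to 74.2) of the regions with a peak in all 5 lists. In exons outside promoters the order was the other way, with 73.9% (70.3 to 77.2) of members and 81.2% (79.1 to 83.2) of the regions in all 5 lists. At promoters the shares were 80.9% and 82.1%, and in introns 80.4% and 80.1%, with intervals that overlap. In windows with a GC content of 60% or more, members held a G4 at 79.5% (76.7 to 82.0) and the regions in all 5 lists at 71.02% (69.0 to 72.9). Among members without Ctrl 3, those in CpG-rich sequence held a G4 at 74.8% (72.0 to 77.5) and the others at 82.4% (81.1 to 83.6). The 2042 intergenic members without Ctrl 2 were repeat-masked over at least 50% of the window at 32.7%, the highest share among the places of members given by the missing control.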
